A study of Mus musculus with 9 samples.

Results

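The integrin and laminin subunits measured in mouse ovary were 35 genes of the 46078 in the count table: 17 integrin alpha subunits, 8 integrin beta subunits and 10 laminin chains. They were taken by gene symbol, with 1 row of the table for each symbol. RNA was sequenced from whole ovaries of C57BL/6J mice, 5 wild type (WT) and 4 lacking estrogen receptor beta (ERβKO). The ERβKO animals carry a germline deletion of exon 3 of Esr2, made with a Rosa26-Cre deleter, and the WT animals were offspring without Cre, so every cell type of the ERβKO ovary carries the deletion. The samples are labelled untreated, while the protocol text shared by the series also describes high fat or control diet and injections, and no label ties a diet to an ovary. Estrous stage was not fixed, and ages are given only as a range over all animals of the study.

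Integrins are cell surface receptors made of 1 alpha and 1 beta subunit, and the pairing sets which matrix protein or cell surface ligand is bound. Laminins are trimers of an alpha, a beta and a gamma chain and form the sheet to which the other components of a basement membrane attach. In the ovary a basement membrane surrounds each follicle and separates the granulosa cells from the theca, and it is broken down and replaced by new vessels and matrix when the follicle becomes a corpus luteum.

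Of the 35 subunits, 1 was called as changed: Itga5, the alpha5 subunit of the fibronectin receptor, was lower in ERβKO ovaries. A gene was called where the adjusted p of the edgeR test over all 16722 genes tested was under 0.05, the log2 fold change (ERβKO over WT) was beyond 0.4 in either direction and the mean level passed 1 FPKM (fragments scaled to transcript length and to library depth) in at least 1 genotype. The share of all genes called lower was 0.801% and the share called higher was 0.915%, against 1 and 0 of the 35 subunits. With DESeq2 under the same thresholds, 4 subunits were called lower (Itga1, Itga2, Itga4 and Itga5) and 0 higher, where 2.47% of 17283 genes were called lower and 2.19% higher. The paper, which used DESeq2 on these same ovaries, named those 4 among its examples of downregulated cell adhesion genes. At an unadjusted edgeR p under 0.05, 8 subunits were lower and 4 higher, against 10.0% and 9.81% of all genes. The median log2 fold change of the 35 subunits was 0.12, and that of all genes tested was -0.00089.

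WT replicate 2 stood apart from the other WT ovaries, at 9.43 on the first principal component of log2 CPM (counts scaled to library depth), where the other WT ovaries lay from -43.8 to -15.6 and the ERβKO ovaries from 19.4 to 35.3. Without it, 3 subunits were called lower (Itga1, Itga2 and Itga5) and 2 higher (Itga7 and Itgal), where calls over all genes tested also rose, to 2.61% lower and 2.95% higher. Library totals ran from 12353740 to 18717510 counts and overlapped, with p = 0.429 by a two-sided exact permutation test of the genotype means. Counts of Esr2 over the whole gene differed by -0.02 on the log2 scale (standard error 0.24, edgeR adjusted p = 0.966), which does not test the deletion of 1 exon. Summed FPKM of 10 granulosa markers ran from 552 to 685 in WT and from 679 to 946 in ERβKO ovaries, and that of 8 theca markers from 508 to 784 and from 897 to 1791. Inha made up most of the granulosa sum, at 336 to 399 FPKM in WT and 387 to 590 in ERβKO ovaries. Of the granulosa markers 9 had positive log2 fold changes and 1 a negative one (Fst, -0.34), and 4 were higher at an unadjusted edgeR p under 0.05. EdgeR called 1 granulosa marker higher (Hsd17b1) and 1 theca marker (Aldh1a1), against 0.915% of all genes. Aldh1a1 made up most of the theca sum, at 424 to 620 FPKM in WT and 761 to 1276 in ERβKO ovaries. Of 7 tested theca markers, 6 had positive log2 fold changes and 1 a negative one. At an unadjusted edgeR p under 0.05, 4 were higher, against 9.81% of all genes. Those were Cyp17a1 (2.35), Aldh1a1 (1.05), Nr5a1 (0.39) and Tcf21 (0.36), while Ptch1, Gli1 and Hhip had 0.03, 0.12 and -0.06. Insl3, the listed theca marker that was not tested, went the other way. It ran from 0 to 1.82 FPKM in WT (mean 0.64) and from 0 to 0.076 in ERβKO ovaries (mean 0.019). The oviduct gene Ovgp1 measured 1294 to 2359 FPKM over the 9 ovaries. The part of these cell types in the values of the subunits was not tested.

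The upstream sequences of Itga5, and of Itgav and Itgb5, which pair in 1 receptor, are shown because Itga5 was the called subunit and the other two were both higher at an unadjusted p under 0.05. Each is the 250 bases before the gene start in RefSeq (GRCm38.p6), read along the gene, with GC boxes (GGGCGG on either strand) in capitals.
Itga5, chr15:103366792-103367041, minus strand: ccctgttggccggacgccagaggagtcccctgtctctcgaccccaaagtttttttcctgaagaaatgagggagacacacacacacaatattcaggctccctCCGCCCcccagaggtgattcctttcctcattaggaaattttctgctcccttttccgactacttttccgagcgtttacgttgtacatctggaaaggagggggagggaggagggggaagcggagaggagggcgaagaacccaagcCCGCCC
Itgav, chr2:83724147-83724396, plus strand: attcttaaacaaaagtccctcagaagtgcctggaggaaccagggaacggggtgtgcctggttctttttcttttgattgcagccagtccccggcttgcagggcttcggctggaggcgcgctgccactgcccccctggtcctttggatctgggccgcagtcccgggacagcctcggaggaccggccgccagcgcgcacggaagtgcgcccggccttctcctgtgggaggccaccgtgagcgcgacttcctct
Itgb5, chr16:33829415-33829664, plus strand: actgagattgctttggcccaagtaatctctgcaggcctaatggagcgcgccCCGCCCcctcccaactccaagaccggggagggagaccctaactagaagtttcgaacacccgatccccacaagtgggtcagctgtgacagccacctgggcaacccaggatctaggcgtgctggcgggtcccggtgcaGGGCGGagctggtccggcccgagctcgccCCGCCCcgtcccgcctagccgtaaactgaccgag
The Itga5 sequence held 2 GC boxes, the Itgb5 sequence 3 and the Itgav sequence 0. Sequences were found for 23 of the 35 subunits, with 26 promoters in all. A GC box was in 9 of the 26 promoters, those of 8 subunits (Itga3, Itga4, Itga5, Itgam, Itgb1, Itgb5, Lama5 and Lamb1), and in 32.7% of all 32851 promoters. A full estrogen response element (GGTCANNNTGACC) was in 0 of the 26 and in 0.0639% of all promoters. The motif bound by the NR5A receptors, which include LRH-1 (CAAGGTCA, either strand), was in 0 of the 26 and in 1.33% of all promoters. Motifs this rare over all promoters cannot set 26 promoters apart from the rest. The 250 bases also leave out introns and intergenic sequence, where the paper placed most of its ERβ-binding sites.

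**Figure D1:**
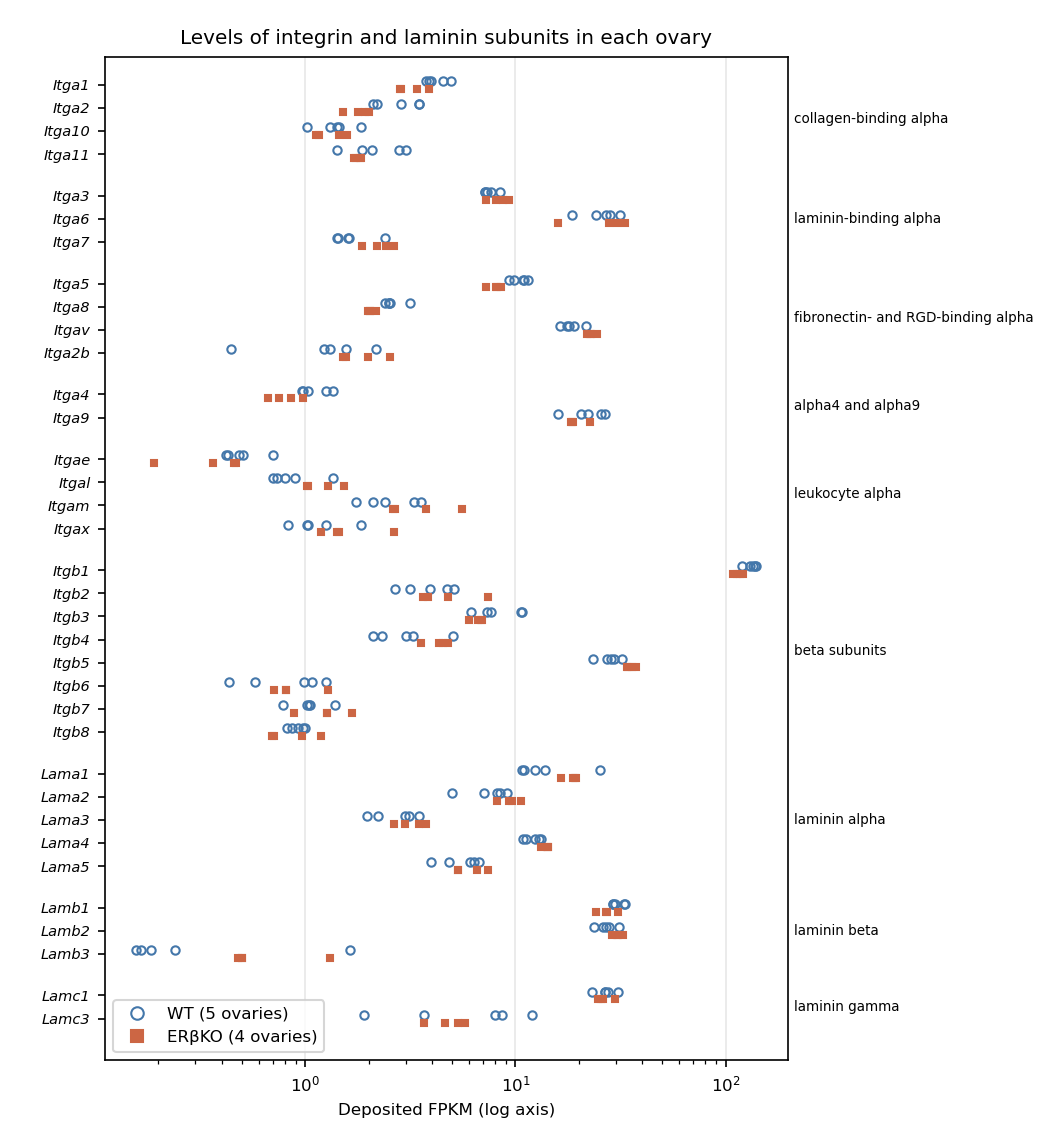
Deposited FPKM (log axis) of the 35 subunits, grouped by role, with each WT ovary as an open circle and each ERβKO ovary as a filled square. Itgb1 lies furthest to the right, above 100 FPKM in each of the 9 ovaries, and Itgae and Lamb3 have ovaries under 1 FPKM in both genotypes.

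The level was above 1 FPKM in at least 1 genotype for 31 of the 35 subunits, and all 35 passed the filter on low counts. Per transcript length, the beta1 subunit Itgb1 was the most abundant of the family, with a mean and SD of 132 ± 8.02 FPKM over 5 WT ovaries and 114.7 ± 5.40 over 4 ERβKO ovaries. Among alpha subunits the highest WT levels were those of Itga6 (25.8 ± 4.82 FPKM), Itga9 (22.1 ± 4.28), Itgav (18.5 ± 2.01) and Itga5 (10.5 ± 0.878). The levels of Itga6 and Itga9 in WT lay within their spread of each other. The summed FPKM of the 17 alpha subunits was 107 ± 4.93 in WT and 108 ± 8.49 in ERβKO ovaries. That of the 8 beta subunits was 179 ± 9.49 and 169 ± 4.54.

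**Figure D2:**
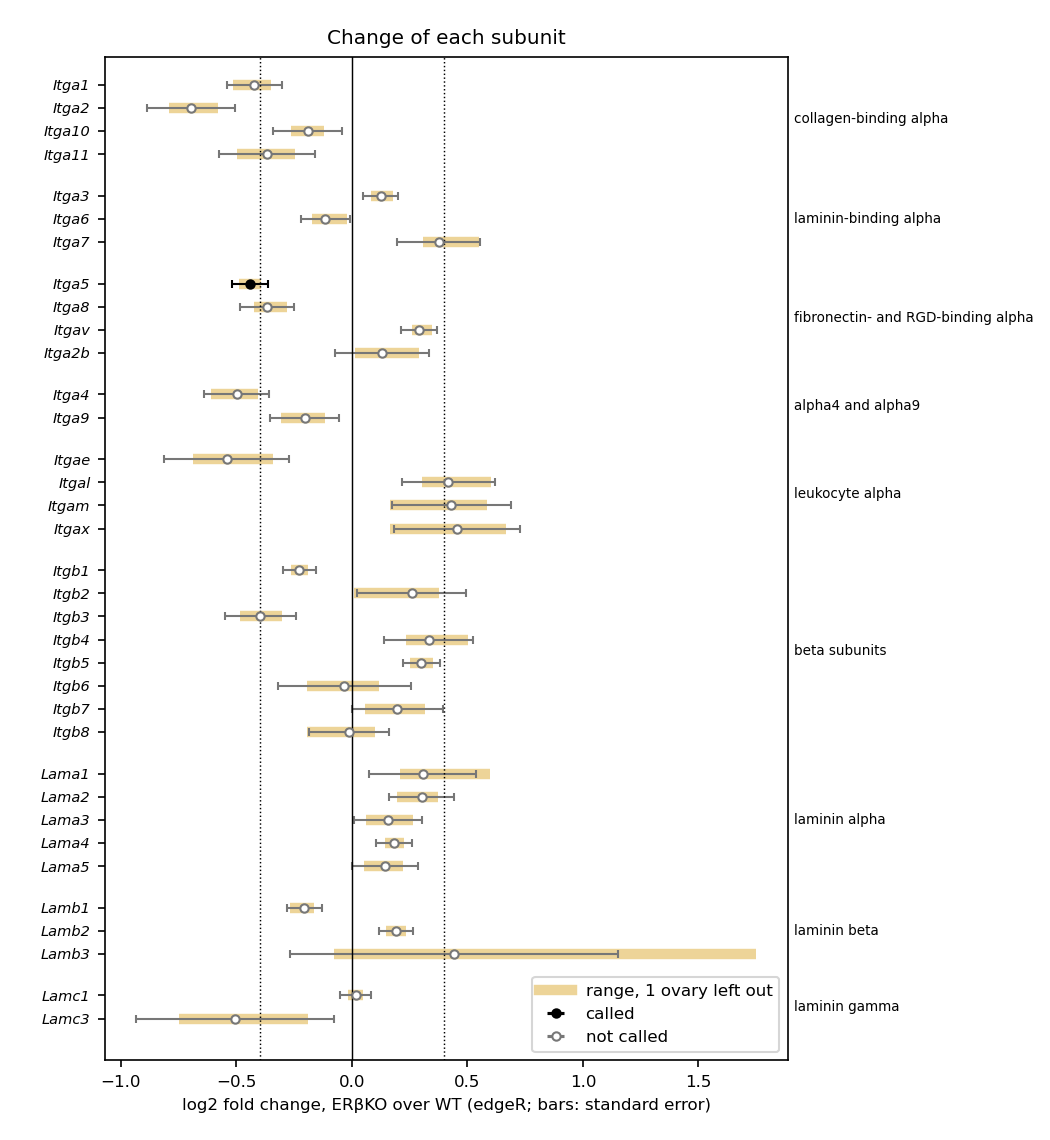
The log2 fold change of each subunit (ERβKO over WT, edgeR) with its standard error as a bar, the range over the fits that leave out 1 ovary as a band, and dotted lines at 0.4 in either direction. Itga5 is the filled point, and the band of Lamb3 runs from -0.08 to 1.75.

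Itga5 (ENSMUSG00000000555) is encoded on chromosome 15 (GRCm38, 103344289 to 103366763). The FPKM of Itga5 in the 5 WT ovaries was 11, 10.9, 11.5, 9.35 and 9.87, and in the 4 ERβKO ovaries 7.23, 8.05, 8.50 and 8.17. All 4 ERβKO values were below all 5 WT values, and the two-sided exact permutation p was 0.0159, the smallest that 5 against 4 ovaries can give. In the edgeR test the log2 fold change of -0.44 had a standard error of 0.08 and an adjusted p of 0.0219. The direction held in every one of 19 alternative fits, while the call held in 10 of them, with adjusted p between 0.000125 and 0.0940. It was lost with the limma fits, with adjusted p between 0.0510 and 0.0940, and without WT replicate 1, with an edgeR adjusted p of 0.0627. It was also lost without ERβKO replicate 2 or 4, with 0.0899 and 0.0757. Without ERβKO replicate 1 the log2 fold change was -0.39, inside the threshold. The call was lost as well with the replicate number as a block. The same held with only the libraries numbered below 200 in the labels, which leaves out WT replicates 4 and 5.

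The collagen-binding alpha subunits Itga1, Itga2, Itga10 and Itga11 all had negative log2 fold changes, and none was called by edgeR. Itga1, a collagen and laminin receptor subunit on chromosome 13 from 114958079 to 115101964, measured 4.50, 3.76, 4.91, 3.88 and 3.98 FPKM in WT and 3.90, 2.85, 3.40 and 2.82 in ERβKO ovaries. By FPKM the highest ERβKO ovary reached into the WT range, and by CPM the genotypes did not overlap. For Itga1 the log2 fold change was -0.42 (standard error 0.12, edgeR adjusted p = 0.0934, DESeq2 adjusted p = 0.0242). Itga2, the collagen receptor subunit best known from platelets and epithelia, lies beside it on the same chromosome from 114835916 to 114932041.

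Itga2 measured 2.87, 2.11, 2.19, 3.48 and 3.48 FPKM in WT and 2.01, 1.51, 1.78 and 1.93 in ERβKO ovaries. The genotypes did not overlap, and the WT ovaries fell into a lower pair (replicates 2 and 3) and a higher 3 (replicates 1, 4 and 5). Those 3 also had the highest luteal marker sums, described with Lamc3 below. For Itga2 the log2 fold change of -0.70 (standard error 0.19, edgeR adjusted p = 0.0846) was the most negative of the 35 subunits, and the DESeq2 adjusted p was 0.0112. Itga11, a receptor for fibrillar collagen in stromal cells, ranged from 1.42 to 3.01 FPKM in WT and from 1.71 to 1.84 in ERβKO ovaries (log2 fold change -0.37, standard error 0.21). Itga10 had a log2 difference of -0.19 (standard error 0.15), and its count is uncertain.

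Itga4 and Itga9 form a small structural class whose ligands include VCAM1 and tenascin. Itga4, on chromosome 2 from 79255426 to 79333123, measured 1.35, 1.04, 1.25, 0.968 and 0.981 FPKM in WT and 0.978, 0.860, 0.750 and 0.667 in ERβKO ovaries. The genotypes did not overlap by CPM, and by FPKM 1 ERβKO ovary lay above the lowest WT ovary. For Itga4 the log2 fold change was -0.50 (standard error 0.14, edgeR adjusted p = 0.0936, DESeq2 adjusted p = 0.0168). Genes on the opposite strand cover 8.04% of the Itga4 exons, and also 7.66% of those of Itgb4, 6.27% of Lamc3, 5.90% of Itgav and 5.05% of Itga8. Whether strand was used in counting is not given in the sources used here, so reads of both strands cannot be told apart there. Itga9 was more abundant, at 22.1 ± 4.28 FPKM in WT and 19.5 ± 1.99 in ERβKO ovaries, at a log2 difference of -0.21 (standard error 0.15, edgeR adjusted p = 0.477).

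Among the subunits that bind fibronectin and other ligands with an RGD motif, Itga8 was lower and Itgav higher at an unadjusted p under 0.05, beside the called Itga5. Itga8, the nephronectin receptor subunit, measured 2.49, 2.38, 3.14, 2.50 and 2.54 FPKM in WT and 2.02, 2.02, 2.18 and 1.98 in ERβKO ovaries. No ERβKO ovary reached the lowest WT ovary (log2 fold change -0.37, standard error 0.12, edgeR adjusted p = 0.122). Itga2b, the platelet fibrinogen receptor subunit, had a log2 difference of 0.13 (standard error 0.20). Of the platelet markers, Gp9 and Gp1ba were listed at 0 in all 9 ovaries and the summed level of the 7 markers ran from 3.03 to 6.95 FPKM in WT and from 3.57 to 6.45 in ERβKO ovaries. FPKM and CPM of Itga2b disagreed by up to 3.26 times between ovaries, so its FPKM does not rank them.

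Itgav and Itgb5 encode the subunits of the vitronectin receptor alphavbeta5. Itgav, on chromosome 2 from 83724397 to 83806916, measured 17.5, 17.9, 21.6, 19.0 and 16.3 FPKM in WT and 22.9, 21.9, 22.6 and 24.4 in ERβKO ovaries. The genotypes did not overlap by FPKM and overlapped by CPM. For Itgav the log2 fold change was 0.29 (standard error 0.08, edgeR adjusted p = 0.0843, DESeq2 adjusted p = 0.0297). Itgb5, on chromosome 16 from 33829665 to 33949153, measured 29.4, 27.3, 31.9, 28.3 and 23.3 FPKM in WT and 35.8, 34.4, 33.8 and 37.3 in ERβKO ovaries. Each ERβKO ovary was above each WT ovary on both scales, by 0.30 on the log2 scale (standard error 0.08, edgeR adjusted p = 0.0796, DESeq2 adjusted p = 0.0243). Neither reached the fold threshold of 0.4. The rule on non-overlapping CPM was met by 5 subunits that were lower (Itga1, Itga2, Itga4, Itga5 and Itga8), where 4.04% of all genes had every ERβKO ovary below every WT ovary, and by 1 that was higher (Itgb5), where 3.92% of genes had the opposite. Without WT replicate 2, 5 were lower and 4 higher, the latter being Itga7, Itgal, Itgb5 and Lamb3, where 7.74% and 7.52% of all genes did not overlap.

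**Figure D3:**
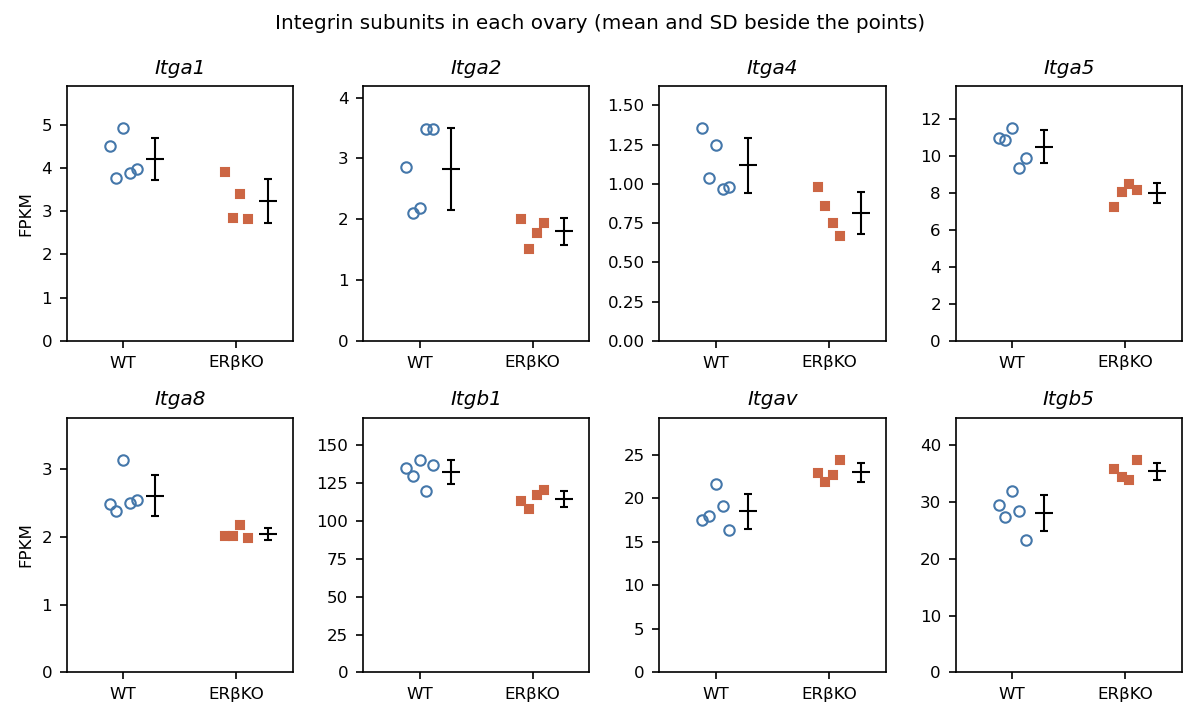
FPKM (linear axis from 0) in each WT ovary (open circles) and each ERβKO ovary (filled squares), with the mean and SD of the group beside them, for 8 integrin subunits. Itga5 and Itgb5 separate the genotypes in opposite directions, and Itga1 and Itga4 overlap in part.

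Itgb1 is the common partner of alpha1, alpha2, alpha4, alpha5 and alpha8, among others. It measured 135, 130, 140, 120 and 137 FPKM in WT and 113, 108, 117 and 121 in ERβKO ovaries. The highest ERβKO ovary was just above the lowest WT ovary (two-sided exact permutation p = 0.0317), with a change of -0.23 on the log2 scale (standard error 0.07, edgeR adjusted p = 0.118, DESeq2 adjusted p = 0.0453). As a share of the summed FPKM of the 8 beta subunits, Itgb1 made up 74.0 ± 2.62% in WT and 67.9 ± 1.64% in ERβKO ovaries, and Itgb5 15.7 ± 1.60% and 20.9 ± 0.675%. The ranges of these shares did not overlap, at 71.6 to 78.4% against 65.5 to 69.2% for Itgb1 and 13.3 to 17.2% against 20 to 21.5% for Itgb5. Shares within a sum are not independent of each other, and no test was run on them.

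**Figure D4:**
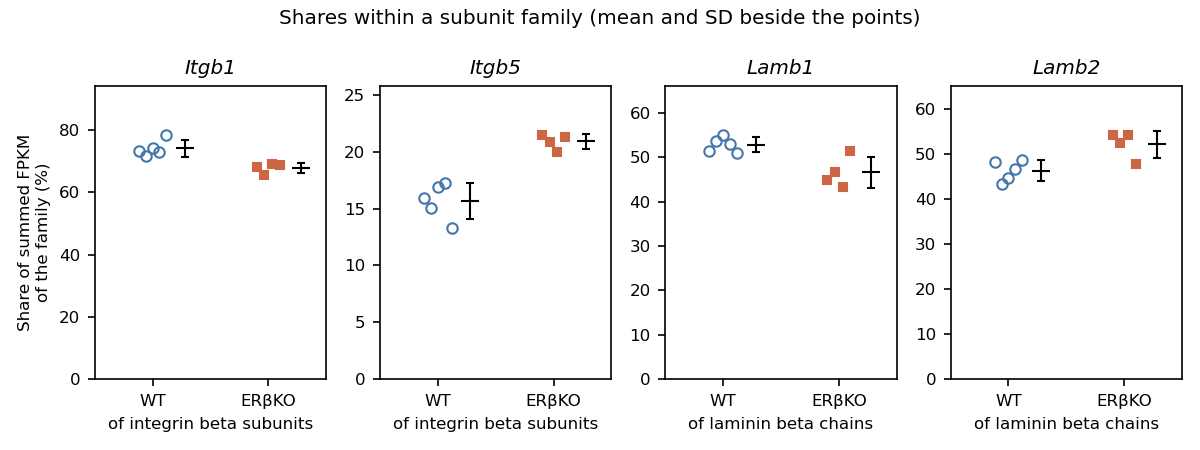
Share (%) of a subunit in the summed FPKM of its family, in each WT ovary (open circles) and each ERβKO ovary (filled squares), with the mean and SD beside them. The shares of Itgb1 and Itgb5 separate the genotypes, while those of Lamb1 and Lamb2 overlap.

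Itgb3, the beta subunit shared by the platelet receptor and alphavbeta3, measured 10.7, 10.6, 7.30, 7.61 and 6.15 FPKM in WT and 6.87, 5.99, 6.64 and 6.92 in ERβKO ovaries. Replicates 1 and 2 were above the other 3 WT ovaries, and the groups overlapped (log2 fold change -0.40, standard error 0.15, edgeR adjusted p = 0.191). Itgb4, the hemidesmosome subunit that pairs with alpha6, ranged from 2.10 to 5.04 FPKM in WT, highest in replicate 2, and from 3.55 to 4.79 in ERβKO ovaries (log2 fold change 0.33, standard error 0.19). The summed FPKM of 8 surface epithelium markers ran from 189 to 293 in WT, also highest in replicate 2, and from 254 to 305 in ERβKO ovaries. Among WT ovaries Krt7, Krt8, Krt18 and Krt19 were highest in that replicate, while Upk3b, Lgals7, Msln and Upk1b were not. Of 8 oviduct markers, Foxj1, Pax8, Epcam and Ehf were also highest of the WT ovaries there, and Ovgp1, Cldn3, Cldn4 and Muc16 were not. The part of either cell type in Itgb4 was not tested. Itgb6, Itgb7 and Itgb8 lay near 1 FPKM, with log2 fold changes of -0.03, 0.20 and -0.01. The sign for Itgb6 and Itgb8 changed when single ovaries were left out.

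The laminin-binding alpha subunits were not called. Itga6 ranged from 18.6 to 31.5 FPKM in WT and from 16.0 to 33.2 in ERβKO ovaries, at a log2 difference of -0.11 (standard error 0.11) on counts and 0.02 on FPKM. FPKM and CPM of Itga6 disagreed by up to 1.69 times between ovaries, so its FPKM does not rank them. Itga3 had a log2 difference of 0.12 (standard error 0.08). Itga7, a subunit of muscle cells, measured 1.42, 2.40, 1.60, 1.44 and 1.62 FPKM in WT and 2.66, 2.43, 2.20 and 1.87 in ERβKO ovaries, so WT replicate 2 alone lay among the ERβKO ovaries. The log2 fold change of Itga7 was 0.38 (standard error 0.18, edgeR adjusted p = 0.280), and without that ovary it was 0.55 with an adjusted p of 0.0376. That fit is given because the ovary stood apart, so its adjusted p is no separate support. With each ovary left out in turn, the edgeR adjusted p of Itga7 ran from 0.0376 to 0.461.

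The leukocyte integrins Itgal, Itgam and Itgax, with their beta2 partner Itgb2, had positive log2 fold changes of 0.42, 0.43, 0.45 and 0.26, with standard errors of 0.20 to 0.27, and none was called. Without ERβKO replicate 2 the log2 fold changes were 0.30, 0.17, 0.16 and 0.0096. Itgae, which pairs with beta7 on intraepithelial T cells, had -0.54 (standard error 0.27). Itgam was highest in ERβKO replicate 2, at 5.57 FPKM, and the other 3 ERβKO ovaries measured 2.69, 3.77 and 2.62 against 1.74 to 3.54 in WT. The same ovary had the highest sum of 10 leukocyte markers, 317 FPKM, of which Lyz2 made up 243. Cd14 (6.04 FPKM), Laptm5 (16.0) and, by little, Cd68 (29.9 against 29.8 in WT replicate 1) were also highest there. Ptprc, Csf1r, Adgre1, Cd3e and Cd79a were highest in WT replicate 1, and Coro1a in ERβKO replicate 3. The sums ran from 153 to 279 in WT and from 175 to 317 in ERβKO ovaries. Of these markers 9 were tested, 7 had positive and 2 negative fold changes, and 0 were called by edgeR or DESeq2 or had an unadjusted edgeR p under 0.05. Whether the number of leukocytes contributed to the levels of these subunits was not tested. In a whole ovary, fewer cells of a type and less RNA per cell cannot be told apart.

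All 5 laminin alpha chains had positive log2 fold changes, from 0.14 to 0.31, and 0 were called by edgeR or DESeq2, with 1 (Lama4) at an unadjusted edgeR p under 0.05. Their summed FPKM was 42.6 ± 6.88 in WT and 51.2 ± 0.820 in ERβKO ovaries, with the WT sums between 36.7 and 54.2 and the highest in replicate 3. Lama4, the chain typical of vessels, measured 13.3, 10.9, 13.0, 11.2 and 12.4 FPKM in WT and 13.3, 14.1, 14.3 and 14.2 in ERβKO ovaries. The groups touched without overlap by FPKM and overlapped by CPM (log2 fold change 0.18, standard error 0.08, edgeR adjusted p = 0.232). Lama1, a chain of early and epithelial basement membranes, measured 13.8, 10.7, 25.2, 12.4 and 11 FPKM in WT and 18.9, 16.4, 19.5 and 19.2 in ERβKO ovaries. WT replicate 3 was above every ERβKO ovary and the other 4 WT ovaries were below them all. The log2 fold change of Lama1 was 0.31 (standard error 0.23, edgeR adjusted p = 0.495), and without that ovary 0.60 with an adjusted p of 0.0186. That fit is given because the ovary stood apart, so its adjusted p is no separate support. Over all genes, 357 were called in it, against 287 with every ovary. With each ovary left out in turn, the edgeR adjusted p of Lama1 ran from 0.0186 to 0.703.

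Lama2, the muscle and nerve chain, had a log2 difference of 0.30 (standard error 0.14, edgeR adjusted p = 0.272). Lama5 and the epithelial chain Lama3 had 0.14 and 0.15, each with a standard error near its size. The beta chains Lamb1 and Lamb2, which replace each other in laminin trimers, had changes of opposite sign and neither was called. Lamb1 had a log2 difference of -0.21 (standard error 0.08, edgeR adjusted p = 0.179) and Lamb2 0.19 (standard error 0.07, adjusted p = 0.195). Lamb1 made up 52.8% of the summed beta chain FPKM in WT and 46.6% in ERβKO ovaries, and Lamb2 46.4% and 52.2%. The gamma1 chain Lamc1, part of most laminin trimers, had 27.0 ± 2.72 FPKM in WT and 26.5 ± 2.16 in ERβKO ovaries (log2 fold change 0.02, standard error 0.07).

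For Lamb3 and Lamc3 the SD among WT ovaries exceeded the difference between the genotype means. The same held for Lama1, Lama3, Lama5 and Lamc1, and for several integrin subunits. Lamb3, the beta chain of the epithelial laminin, measured 0.239, 1.63, 0.165, 0.157 and 0.184 FPKM in WT and 0.50, 0.50, 1.31 and 0.478 in ERβKO ovaries. WT replicate 2 and ERβKO replicate 3 were far above the rest of their groups, and the log2 fold change of 0.44 had a standard error of 0.71. The basement membrane protein gene Fbln2 was highest in the same ovaries, at 16.4 and 18.9 FPKM, and is named after its values were seen. Lamc3 measured 8.0, 1.90, 3.66, 8.61 and 12 FPKM in WT and 4.62, 5.33, 3.66 and 5.75 in ERβKO ovaries, with WT replicates 1, 4 and 5 above every ERβKO ovary and replicates 2 and 3 below them all, replicate 3 by a margin that rounding hides (log2 fold change -0.51, standard error 0.43, edgeR adjusted p = 0.548). The summed FPKM of 10 luteal markers was also highest in WT replicates 1, 4 and 5, and ran from 3133 to 6740 in WT and from 2588 to 4076 in ERβKO ovaries. Hsd3b1 (1514 to 3494 FPKM in WT, 1643 to 1740 in ERβKO ovaries) and Cyp11a1 (872 to 1865 and 608 to 1088) made up most of it. WT replicate 4 had a sum of 4175, close to the 4076 of ERβKO replicate 3. That ERβKO ovary had the highest luteal sum of its genotype and the lowest Lamc3. Of the 10 luteal markers 9 had negative fold changes, 5 of them at an unadjusted edgeR p under 0.05, where 10.0% of all genes were lower at that p. EdgeR called 0 and DESeq2 called 3 lower (Star, Cyp11a1 and Parm1), against 0.801% and 2.47% of all genes. Among WT ovaries, Itga2, Itga9 and Itga11 were also highest in replicates 1, 4 and 5. Whether luteal content contributed to Lamc3 or to these 3 integrin subunits was not tested.

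**Figure D5:**
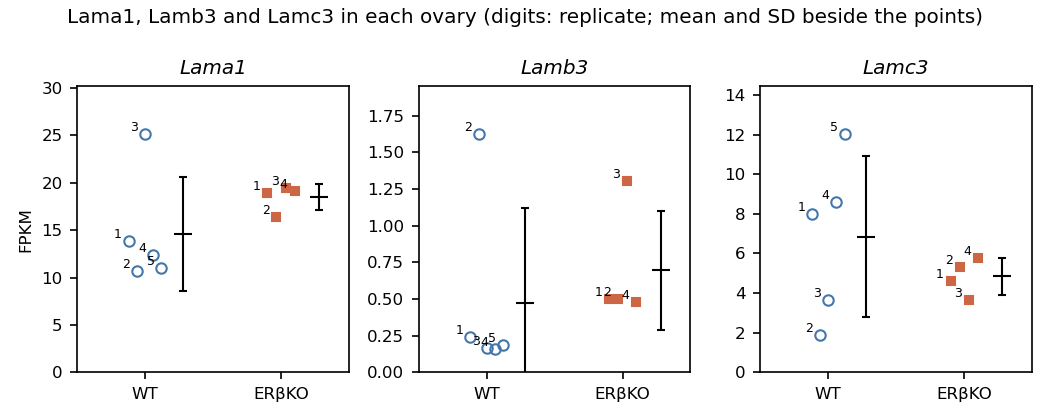
FPKM (linear axis from 0) of 3 laminin chains in each WT ovary (open circles) and each ERβKO ovary (filled squares), numbered by replicate, with the mean and SD beside them (the lower bar of Lamb3 in WT is cut at 0). WT replicate 3 stands apart for Lama1, WT replicate 2 and ERβKO replicate 3 for Lamb3, and the WT ovaries spread from 1.90 to 12 for Lamc3.

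The genes around these receptors were described from lists. Over all genes tested, edgeR called 0.801% lower and 0.915% higher, and the list counts below stand beside these shares. Of 29 adaptor and signalling genes inside the cell, 1 was called lower and 0 higher. This was Ptk2b, the focal adhesion kinase relative PYK2, at 16.1 ± 1.04 FPKM in WT and 11.2 ± 1.36 in ERβKO ovaries (log2 fold change -0.57, standard error 0.09, edgeR adjusted p = 0.0149). At an unadjusted edgeR p under 0.05, 8 were lower and 5 higher, against 10.0% and 9.81% of all genes. DESeq2 called 3 lower and 0 higher, against 2.47% and 2.19% of all genes. These added Parvb and Tns3, which are named after their values were seen. Ptk2b was not called without ERβKO replicate 2. Without WT replicate 2 the list had 2 calls lower and 1 higher, where 2.61% and 2.95% of all genes were called. The most abundant others were Ilk, the integrin-linked kinase, with a log2 fold change of -0.17 (edgeR adjusted p = 0.107), Actn4 with 0.16 (0.121), Rsu1 with -0.04 (0.797) and Actn1 with -0.16 (0.510).

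Of 23 partners of laminin in the basement membrane and at the cell surface, 2 were called lower and 0 higher. Sparc, a collagen-binding matrix protein, measured 423 ± 61.3 FPKM in WT and 292 ± 28.1 in ERβKO ovaries (log2 fold change -0.56, standard error 0.12, edgeR adjusted p = 0.0428). Sdc1, the proteoglycan syndecan-1, measured 33.4 ± 5.72 and 15.8 ± 5.38 FPKM (log2 fold change -1.09, standard error 0.21, edgeR adjusted p = 0.0345). The dystroglycan gene Dag1 had a log2 fold change of 0.24 (edgeR adjusted p = 0.271), Smoc2 1.07 (0.0788), the collagen IV chain Col4a1 -0.44 (0.0953) and Bcam, a receptor for laminin alpha5, 0.25 (0.150). DESeq2 called 5 lower and 2 higher in this list, against 2.47% and 2.19% of all genes. At an unadjusted edgeR p under 0.05, 7 were lower and 5 higher, against 10.0% and 9.81% of all genes. Neither Sparc nor Sdc1 was called without WT replicate 1 or 5 or without ERβKO replicate 1, 2 or 4, and Sparc was not called without WT replicate 4.

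Of 30 genes listed as ligands of integrins other than laminin, or as holding such a ligand in the matrix, 28 were tested. Of the 28, 1 was called lower and 1 higher. Ltbp1, which holds latent TGF-beta in the matrix, measured 51.4 ± 18.5 FPKM in WT and 18.5 ± 5.08 in ERβKO ovaries (log2 fold change -1.51, standard error 0.29, edgeR adjusted p = 0.0323). Vcam1, a ligand of the alpha4 integrins, measured 4.96, 5.87, 3.13, 2.90 and 3.07 FPKM in WT and 4.47, 17.4, 12.7 and 20.3 in ERβKO ovaries. ERβKO replicate 1 lay within the WT range and the other 3 were above it (log2 fold change 1.77, standard error 0.38, edgeR adjusted p = 0.0460). Col3a1, Col1a2, Mfge8 and fibronectin, Fn1, were the most abundant others, with log2 fold changes of -0.50, -0.12, -0.28 and 0.04 and edgeR adjusted p of 0.309, 0.773, 0.0540 and 0.949. At an unadjusted edgeR p under 0.05, 5 genes of this list were lower and 4 higher, against 10.0% and 9.81% of all genes. DESeq2 called 3 of the list lower and 2 higher, against 2.47% and 2.19% of all genes. Both edgeR calls were lost without WT replicate 1, 4 or 5 or ERβKO replicate 2, 3 or 4. That of Vcam1 was also lost without WT replicate 3 and that of Ltbp1 also without ERβKO replicate 1.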

How the data were processed

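The 9 ovaries were sequenced with a stranded poly-A protocol. The authors aligned reads to GRCm38 with STAR and deposited whole-number counts per gene from featureCounts in 1 table, and FPKM and TPM per gene from StringTie in 1 file per ovary. The submitters' processing notes also name bcl2fastq 2.20.0.422, CASAVA and Trim Galore, and the use of strand in counting is not given in the sources used here. FPKM served for levels and for the level threshold. The deposited TPM values were not analysed further.

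Counts of all genes were tested with edgeR 4.0.16 (R 4.3.3; TMM factors, filterByExpr, quasi-likelihood F test, Benjamini-Hochberg adjustment over 16722 of 46078 genes; common biological coefficient of variation 0.179), on 5 WT against 4 ERβKO ovaries without covariates. The thresholds are those of the study, which used DESeq2 (1.42.0 here, as an alternative). Standard errors are the log2 fold change over the square root of F. limma 3.58.1 on log2(FPKM + 1) or log2(FPKM + 0.1) was a further alternative. Single values used a two-sided exact permutation test over 126 splits. Labels do not say whether animals share a litter, and p-values measure the spread between these ovaries.

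The subunits, the lists around them and the markers were chosen with earlier results of these data known. All subunits are named. Values for each ovary are given for called subunits, for those without overlap at an unadjusted p under 0.05, and for others the text singles out. Of the other lists, called genes and up to 4 more with the highest mean FPKM are named, with Fbln2, Parvb and Tns3 and the markers beside a subunit named after their values were seen. An item bearing on the count of Itga10 is not reported here. No pair of libraries of a genotype agreed within sampling noise. On simulated counts for this comparison over 16543 genes, edgeR recovered 84% of genes changed by a log2 fold change of 1 and 99% of those changed by 2, with 1.61% of its calls false. DESeq2 recovered 94% and 100% over 16722 genes, with 13.4% of its calls false. No smaller change was simulated. Recovery at the sizes seen in the subunits, with log2 fold changes from -0.70 to 0.45, is therefore not known.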

Additional observations from a re-analysis of the deposited data

Results flagged for a closer look

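Of the 70 groups of ovaries (35 subunits in 2 genotypes), 8 held an ovary far from the others of its genotype, by the gap to its nearest neighbour over the range; chance gives about 1 in 20. In WT replicate 2, Itga7 was highest at 2.40 FPKM, Itgae at 0.706 and Lamb3 at 1.63. In WT replicate 3, Itga8 was highest at 3.14 FPKM and Lama1 at 25.2. In ERβKO replicate 4, Itga9 was highest at 22.5 FPKM, and in ERβKO replicate 3, Lamb3 was highest at 1.31. In ERβKO replicate 1, Lama4 was lowest at 13.3 FPKM.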

How the results depend on the processing

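Of 656 alternative values, 615 kept their direction and their side of the threshold, 8 passed it, 9 fell short of it and 24 changed sign. The count of 287 genes called became 805 with DESeq2, 51 with the libraries numbered below 200 in the labels (WT replicates 4 and 5 left out), 39 with limma on log2(FPKM + 1) without a filter, and 60 to 919 with 1 ovary left out. The 1 subunit called became 4 with DESeq2, 0 with the libraries below 200 and in each limma fit, and 0 to 5 with 1 ovary left out. For adaptors, the 1 call became 3 with DESeq2, 0 with the libraries below 200 and in the unfiltered limma fit, and 0 to 3 with 1 ovary left out. For basement membrane partners, 2 became 7, 0, 0 and 0 to 4 in the same order. For the other ligands, 2 became 5 with DESeq2, 4 without a filter on low counts, 0 with the libraries below 200 and in each limma fit, and 0 to 4 with 1 ovary left out. Itga6 changed sign in the limma fits (0.025, 0.024 and 0.025), as did Lamc1 (-0.023, -0.024 and -0.023) and Itgb6 in the unfiltered one (0.039). With the libraries below 200, Itgb6 was 0.18, Lamb3 -0.064, Lamc1 -0.0087 and Lamc3 0.13. With 1 ovary left out, Itgb6 ran from -0.20 to 0.12, Itgb8 from -0.19 to 0.099, Lamb3 from -0.076 to 1.75 and Lamc1 from -0.018 to 0.046. The cause was not tested. The alternative without WT replicate 2 for non-overlapping subunits (9 against 6) was chosen after seeing the data.

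The ovaries share only a replicate number. The correlations of same-numbered deviations were 0.095, 0.13, -0.043 and -0.011, which do not pair them. With a replicate block, 155 genes, 0 subunits and 0 of the other ligands were called, Itga5 had an adjusted p of 0.0669 and Itgb6 a log2 fold change of 0.10.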
